A study of Mus musculus with 6 samples.

Results

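The genes described here are 34 genes of DNA replication and S phase, listed by name and found by Entrez identifier and RefSeq symbol among the 26332 genes of a count table. All 34 were found and all 34 passed the filter on low counts, which left 13294 genes. The list covers 6 roles: origin licensing and the replicative helicase (10 genes), synthesis at the fork (5), nucleotide supply (3), chromatin and histone supply (5), fork checkpoint and repair (8) and regulators of entry into S phase (3).

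Duplication of the genome begins when origins are licensed in G1 phase by loading of the MCM helicase, and it starts in earnest when cyclin E and its kinase partner, followed by other kinases, activate the loaded helicases. E2F transcription factors drive many of the genes involved, so their transcripts rise together as cells pass from G1 into S phase. In the thymus, DN3 cells that have made a working T-cell receptor β chain divide rapidly at β-selection, whereas DN3 cells still rearranging that gene divide little.

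RNA-seq compared sorted DN3 thymocytes of 2 Tcf7 knockout mice (KO) and of 4 wild-type mice (WT), all of the C57BL/6 strain, to ask what Tcf7 does in these cells. Tcf7 encodes TCF-1, a DNA-binding factor of T-cell development. Each library came from 1 mouse. KO 1 and WT 4 were male, and KO 2 and WT 1, 2 and 3 were female. Cells were sorted as CD25+ and as negative for CD44, TCRβ, CD3, CD8, NK1.1 and the CD1d tetramer. The labels give neither the ages of the mice nor the part of Tcf7 that was removed, nor whether the deletion was limited to some cells.

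Libraries held 19589938 counts in KO 1, 13673860 in KO 2 and between 23711513 and 41666797 in WT. The spread was unequal, with a median biological coefficient of variation of 0.377 between the KO libraries and 0.0840 between the WT libraries. Tcf7 itself stood at 1133 and 1022 CPM (counts scaled to a common library size with edgeR's TMM factors) in KO 1 and KO 2, against 2326, 2270, 2266 and 2094 CPM in WT 1 to 4 (log2 fold change -1.05, SE 0.0857, adjusted p = 0.00127), so transcripts remained in both KO libraries. The 12 DN3 markers were detected in every library and summed to 10431 and 11155 CPM in KO 1 and KO 2, against 14877 to 15808 CPM in WT, and 7 of the 12 were called lower in KO. Mitochondrial genes took 0.893% of counts in KO 1 and 1.78% in KO 2, against 2.61% to 2.92% in WT.

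To show what lies upstream of these genes, RefSeq promoter windows (build GRCm38.p6, 250 bases before to 50 after the start) were searched on both strands for letters of known cell-cycle elements, and 27 of the 34 genes had such a window. A gene with more than 1 window, such as Uhrf1, was counted once if any of its windows matched, so it had more chances to match. E2F letters, spelled TTTCCCGC, TTTGGCGC or TTTCGCGC, were found for 11 of the 27 genes (40.7%), against 4.23% of 10096 tested genes with a window. These 11 were Mcm3, Mcm5, Mcm6, Mcm7, Cdc6, Cdt1, Pola1, Uhrf1, Casp8ap2, Clspn and Dtl. CCAAT, bound by NF-Y, was in 20 of the 27 (74.1%), against 43.3%. TTTGAA, the letters of the CHR element of mitotic genes, were in 5 (18.5%), against 14.1%. CTTTGAT or CTTTGAA, the letters TCF and LEF proteins bind, were in 1 (3.70%), against 7.07%, and CTTTGAA contains TTTGAA. The median GC content per gene was 63% for the 27 genes and 60.7% for the tested genes. A match is a description of letters, and the absence of one says only that these spellings are not in the window.

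Below are 5 upstream stretches, 5′ to 3′ on the strand of the gene, without bases of annotated transcripts, with E2F and CCAAT letters in capitals. Mcm5 and Mcm6 are shown because their windows hold both elements, and Brip1, Rrm2 and Ccne1 because their transcripts were called higher in KO.
Mcm5, chr8:75109259-75109467, strand +: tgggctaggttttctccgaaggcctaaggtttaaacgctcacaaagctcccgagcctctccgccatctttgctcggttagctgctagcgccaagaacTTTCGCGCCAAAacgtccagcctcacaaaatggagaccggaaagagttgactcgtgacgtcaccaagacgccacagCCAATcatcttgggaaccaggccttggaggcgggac
Mcm6, chr1:128359706-128359955, strand -: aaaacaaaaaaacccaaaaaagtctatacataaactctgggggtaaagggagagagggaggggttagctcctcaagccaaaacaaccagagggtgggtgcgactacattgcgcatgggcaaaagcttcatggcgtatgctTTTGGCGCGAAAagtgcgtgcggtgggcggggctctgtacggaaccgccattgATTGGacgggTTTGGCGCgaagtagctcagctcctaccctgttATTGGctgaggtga
Brip1, chr11:86201216-86201359, strand -: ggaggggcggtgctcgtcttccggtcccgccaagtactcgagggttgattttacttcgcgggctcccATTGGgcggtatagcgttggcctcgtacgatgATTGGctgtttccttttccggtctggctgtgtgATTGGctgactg
Rrm2, chr12:24708004-24708240, strand +: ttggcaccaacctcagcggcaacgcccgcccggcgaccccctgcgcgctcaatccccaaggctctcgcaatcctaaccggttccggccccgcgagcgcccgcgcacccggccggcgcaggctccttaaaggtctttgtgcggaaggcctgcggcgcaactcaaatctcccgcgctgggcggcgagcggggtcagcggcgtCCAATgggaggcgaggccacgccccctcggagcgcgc
Ccne1, chr7:38107535-38107740, strand -: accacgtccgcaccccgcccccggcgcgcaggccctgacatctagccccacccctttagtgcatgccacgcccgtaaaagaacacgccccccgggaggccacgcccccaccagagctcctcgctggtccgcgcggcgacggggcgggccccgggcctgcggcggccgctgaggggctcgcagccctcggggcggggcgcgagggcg
In Mcm6 a pair of overlapping E2F matches on opposite strands began 110 and 106 bases before the start, and a further one began at 47. In Mcm5 such an overlapping pair began 153 and 149 bases before the start. The stretches of Brip1 and Rrm2 hold CCAAT letters without E2F letters, and that of Ccne1 holds neither spelling.

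Most of the 34 genes had more transcripts in KO 1 than in any WT library, while in KO 2 some lay above the WT range, some within it and some below it. Their summed level was 10832 and 7632 CPM in KO 1 and KO 2, against 7841, 7551, 7732 and 6853 CPM in WT 1 to 4 (WT mean 7494 ± 444, SD, n = 4). KO 1 thus stood above every WT library and KO 2 within the WT range. The median of the genes' log2 ratios to the WT mean was 0.58 in KO 1 and 0.13 in KO 2, against 0.07, 0.03, 0.06 and -0.16 in WT 1 to 4. In these bulk samples, a change in the share of cells in S phase and a change in RNA per cell cannot be told apart.

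With edgeR's quasi-likelihood test at an adjusted p under 0.05, 6 of the 34 genes were called higher in KO (17.6%), where 14.1% of all genes tested were called higher and 30.7% were called in either direction. None was called lower, where 16.5% of all genes were, and at an unadjusted p under 0.05 the counts were 14 higher (20.1% of all genes) and 0 lower (23.8% of all genes). The 6 were Ccne1, E2f8, Cdc6, Rrm2, Brip1 and Ccne2. The log2 fold change was above 0 in 32 of the 34 genes, against 46.4% of all genes, with a median of 0.39 (range -0.29 to 1.38) against -0.04 over all genes. limma-voom with weights per genotype called 6 higher and 0 lower, where it called 7.42% of all genes higher and 3.86% lower. It shared 4 calls with edgeR (Ccne1, E2f8, Cdc6 and Rrm2) and added Cdt1 and Clspn in place of Brip1 and Ccne2. DESeq2 called 15 higher and 0 lower, where it called 18.6% of all genes higher and 21.0% lower.

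**Figure D1:**
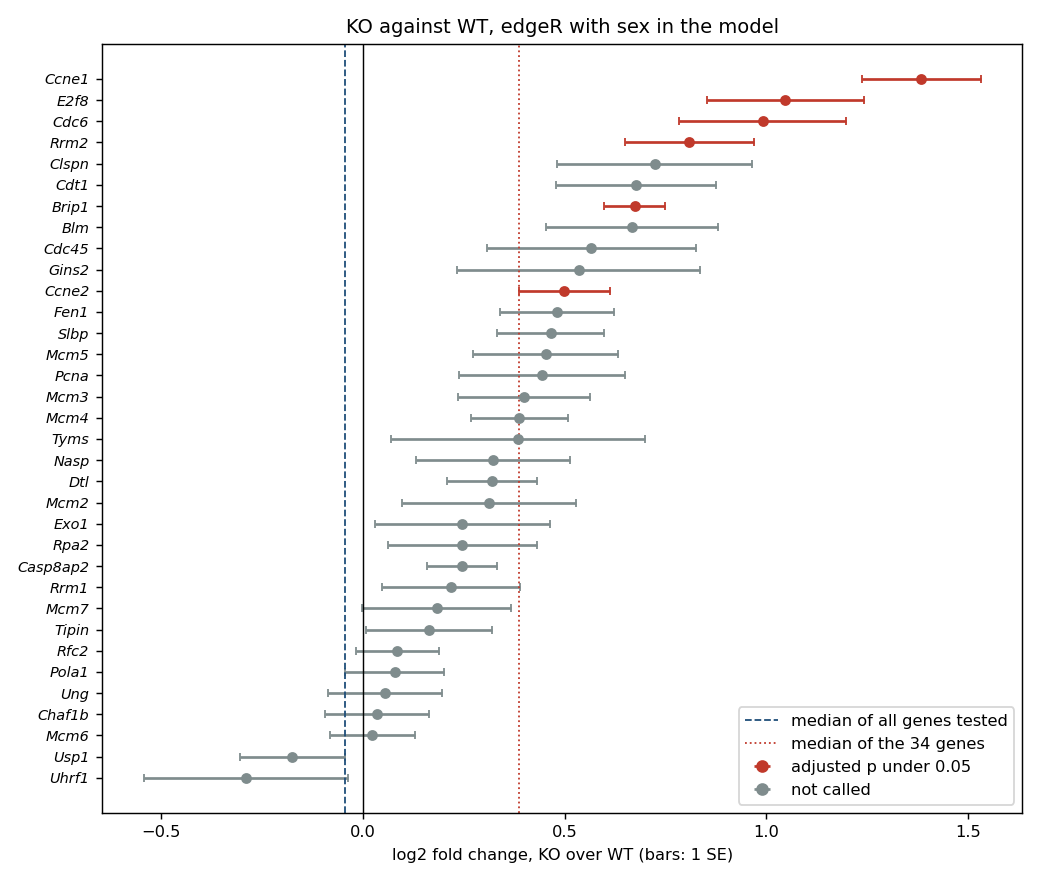
Log2 fold change of KO over WT (horizontal axis) for each of the 34 genes, ordered by size, with bars of 1 SE from edgeR, called genes in red and the others in grey. The dashed line is the median of all genes tested (-0.04) and the dotted line that of the 34 genes (0.39). Ccne1 lies highest at 1.38 and Uhrf1 lowest at -0.29, and 32 of the 34 genes lie above 0.

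KO 1 was above all 4 WT libraries for 32 of the 34 genes (40.5% of all genes tested), within their range for Ccne2 and below it for Usp1. KO 2 was above all WT libraries for 19 (38.1% of all genes), within their range for 8 and below it for 7 (44.9% of all genes were below). Both KO libraries were above all WT libraries for 17 genes (22.9% of all genes), and 12 of these were not called. KO 1 exceeded KO 2 in 30 of the 34 genes (47.9% of all genes), and among the WT libraries WT 4 was lowest in 30 (35.7% of all genes). KO 1 and WT 4 were the male libraries, and with 1 male in each genotype a sex effect in KO and the difference between these mice cannot be told apart.

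**Figure D2:**
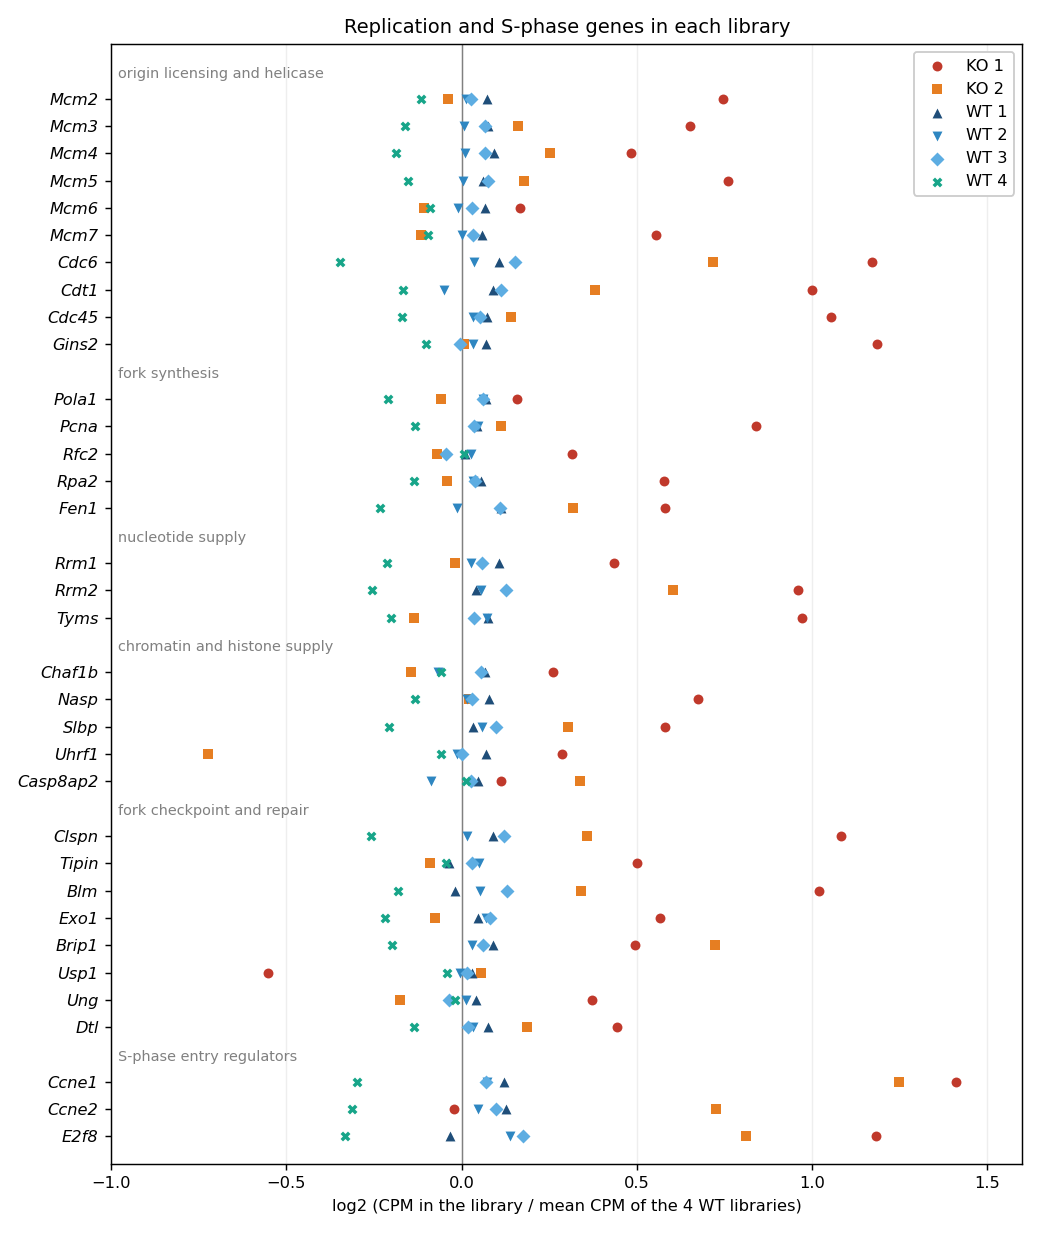
Log2 ratio of the CPM in each library to the mean CPM of the 4 WT libraries (horizontal axis) for the 34 genes by role, with 1 symbol per library. KO 1 is above all WT libraries for 32 genes and KO 2 for 19.

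Among the licensing and helicase genes, 1 of 10 was called, Cdc6, which loads the MCM ring at origins (Entrez 23834, chr11:98907709-98923942). Cdc6 stood at 150.1 and 109 CPM in KO 1 and KO 2, against 71.8, 68.3, 74.1 and 52.4 CPM in WT 1 to 4. Both KO libraries were above every WT library, and the log2 fold change was 0.99 (SE 0.207, edgeR adjusted p = 0.0214, voom 0.00352), or 1.99-fold. Its partner in loading, Cdt1, had a log2 fold change of 0.68 (SE 0.198), with an adjusted p of 0.0542 in edgeR and 0.0442 in voom.

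The MCM genes, whose products form the helicase ring itself, held no call. Mcm6 stood at 1006 and 831 CPM in KO 1 and KO 2, against 938, 889, 914 and 841 CPM in WT 1 to 4 (log2 0.02, SE 0.105, adjusted p = 0.886). KO 1 was above all WT libraries and KO 2 below them. Mcm2 stood at 835 and 484 CPM in KO 1 and KO 2, against 524, 502, 507 and 459 CPM in WT 1 to 4 (log2 0.31, SE 0.215, adjusted p = 0.317), with KO 2 inside the WT range.

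The other helicase genes, Mcm3, Mcm4, Mcm5, Mcm7, Cdc45 and Gins2, the last 2 being partners that turn the loaded ring into a working helicase, had log2 fold changes between 0.18 and 0.57 and adjusted p between 0.0617 and 0.491. In KO 1 all 10 genes of this role were above WT, and in KO 2 this held for 6 (Mcm3, Mcm4, Mcm5, Cdc6, Cdt1 and Cdc45). Mcm2 and Gins2 were within the WT range in KO 2, and Mcm6 and Mcm7 were below it. The median log2 fold change of the role was 0.43.

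None of the 5 fork synthesis genes was called, with log2 fold changes between 0.08 and 0.48 and a median of 0.25. Pcna, the sliding clamp of the polymerases, stood at 515 and 311 CPM in KO 1 and KO 2, against 297, 297, 294 and 262 CPM in WT 1 to 4. Every WT library was below both KO libraries, with a small margin to KO 2, and the test gave a log2 fold change of 0.44 (SE 0.206, adjusted p = 0.161).

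Fen1, the nuclease that trims Okazaki fragments, stood at 209.9 and 175 CPM in KO 1 and KO 2, against 151, 139, 151 and 119 CPM in WT 1 to 4. Here too both KO libraries were above all WT libraries, and the adjusted p of 0.0552 (log2 0.48, SE 0.141) missed the threshold. Pola1, the catalytic subunit of the priming polymerase, Rfc2, a subunit of the clamp loader, and Rpa2, a subunit of the single-strand binding protein, had log2 fold changes of 0.08, 0.09 and 0.25, and KO 2 was within or below the WT range for each.

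Of the 3 nucleotide supply genes, Rrm2 was called and Rrm1 and Tyms were not. Rrm2 encodes the small subunit of ribonucleotide reductase, which limits deoxynucleotide synthesis and is made mainly in S phase (Entrez 20135, chr12:24708254-24714146). It stood at 425 and 332 CPM in KO 1 and KO 2, against 225, 228, 239 and 184 CPM in WT 1 to 4. Both KO libraries were above every WT library, at 1.75-fold (log2 0.81, SE 0.160, adjusted p = 0.0182, voom 0.00336).

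Rrm1, the large subunit of the same enzyme, stood at 665 and 485 CPM in KO 1 and KO 2, against 529.7, 501, 512 and 425 CPM in WT 1 to 4 (log2 0.22, SE 0.171, adjusted p = 0.379). Tyms, which makes thymidylate, stood at 159 and 74.0 CPM in KO 1 and KO 2, against 85.6, 85.5, 83.3 and 70.7 CPM in WT 1 to 4 (log2 0.39, SE 0.315, adjusted p = 0.395). In both genes KO 1 was above the WT libraries and KO 2 among them.

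The 5 chromatin and histone supply genes held no call, with log2 fold changes between -0.29 and 0.47. Uhrf1, which guides maintenance DNA methylation behind the fork, stood at 1076 and 534 CPM in KO 1 and KO 2, against 925, 874, 882 and 847 CPM in WT 1 to 4 (log2 -0.29, SE 0.254, adjusted p = 0.427). The KO libraries lay on opposite sides of WT, with KO 1 above every WT library and KO 2 below. Nasp, a histone chaperone, stood at 355 and 226 CPM in KO 1 and KO 2, against 235, 225, 227 and 203 CPM in WT 1 to 4 (log2 0.32, SE 0.191, adjusted p = 0.254), again with KO 2 among the WT libraries.

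Slbp, which binds the stem-loop of histone mRNAs, had an adjusted p of 0.0508 (log2 0.47) with both KO libraries above WT. Casp8ap2, needed for histone gene expression, likewise had both KO libraries above WT (log2 0.25, adjusted p = 0.0881), and it was 1 of 4 genes in which KO 2 exceeded KO 1. Chaf1b, a subunit of the chromatin assembly factor CAF-1, had a log2 fold change of 0.04 with KO 2 below the WT range.

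Of the 8 checkpoint and repair genes, Brip1 was called. Brip1, a helicase of the Fanconi anaemia pathway that works with BRCA1 (Entrez 237911, chr11:86058136-86201215), stood at 44.6 and 52.2 CPM in KO 1 and KO 2, against 33.7, 32.3, 33.0 and 27.6 CPM in WT 1 to 4. The KO libraries both exceeded every WT library and were near each other, with an SE that was the smallest of the 34 (log2 0.67, SE 0.0756, edgeR adjusted p = 0.00324). In voom it was not called (adjusted p = 0.0665).

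Usp1, the deubiquitinase of PCNA and FANCD2, stood at 187 and 285 CPM in KO 1 and KO 2, against 280.2, 273, 277 and 266 CPM in WT 1 to 4 (log2 -0.18, SE 0.130, adjusted p = 0.353). KO 1 was below all WT libraries, while KO 2 was just above them. Dtl, the substrate receptor that directs CDT1 to destruction in S phase, stood at 193 and 162 CPM in KO 1 and KO 2, against 149.8, 145, 144 and 129 CPM in WT 1 to 4 (log2 0.32, SE 0.112, adjusted p = 0.0849), with both KO libraries above WT.

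Clspn, the adaptor that lets ATR activate CHK1, had a log2 fold change of 0.72 (SE 0.242), with an adjusted p of 0.0770 in edgeR and 0.0310 in voom. Blm, the Bloom helicase, had a log2 fold change of 0.67 (adjusted p = 0.0684) with both KO libraries above WT. Tipin, a fork protection factor, Exo1, a repair exonuclease, and Ung, which removes uracil from DNA, had log2 fold changes of 0.16, 0.25 and 0.05, with adjusted p between 0.426 and 0.802. KO 2 was within the WT range for Exo1 and below it for Tipin and Ung.

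All 3 S-phase entry regulators were called higher in KO, against 14.1% of all genes, and voom called 2 of the 3. Ccne1 had the largest fold change of the 34 genes. Ccne1 encodes cyclin E1, which activates CDK2 at the start of S phase (Entrez 12447, chr7:38097984-38107490). It stood at 43.2 and 38.6 CPM in KO 1 and KO 2, against 17.7, 17.1, 17.1 and 13.2 CPM in WT 1 to 4. Both KO libraries were above every WT library, and the KO mean was 2.61-fold higher on the fitted scale (log2 1.38, SE 0.147, edgeR adjusted p = 0.00294, voom 0.00113).

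E2f8, an atypical E2F that represses E2F targets later in S phase (Entrez 108961, chr7:48866429-48882073), stood at 101 and 78.1 CPM in KO 1 and KO 2, against 43.5, 48.9, 50.2 and 35.3 CPM in WT 1 to 4. The groups did not overlap, and the fold change was 2.07 (log2 1.05, SE 0.194, adjusted p = 0.0152, voom 0.00943). Ccne2, the gene of cyclin E2 (Entrez 12448, chr4:11190433-11204779), stood at 23.2 and 39.0 CPM in KO 1 and KO 2, against 25.8, 24.4, 25.2 and 19.0 CPM in WT 1 to 4. KO 1 lay inside the WT range, so this call (log2 0.50, SE 0.113, adjusted p = 0.0259) came with overlapping groups, and it was lost in voom (adjusted p = 0.375) and without the sex term (adjusted p = 0.239). Reads of Ccne2 and of Ints8 and a long noncoding RNA that overlap it, and of E2f8 and 2 overlapping noncoding RNAs, cannot be told apart where the genes overlap on opposite strands, since the library kit marks no strand.

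**Figure D3:**
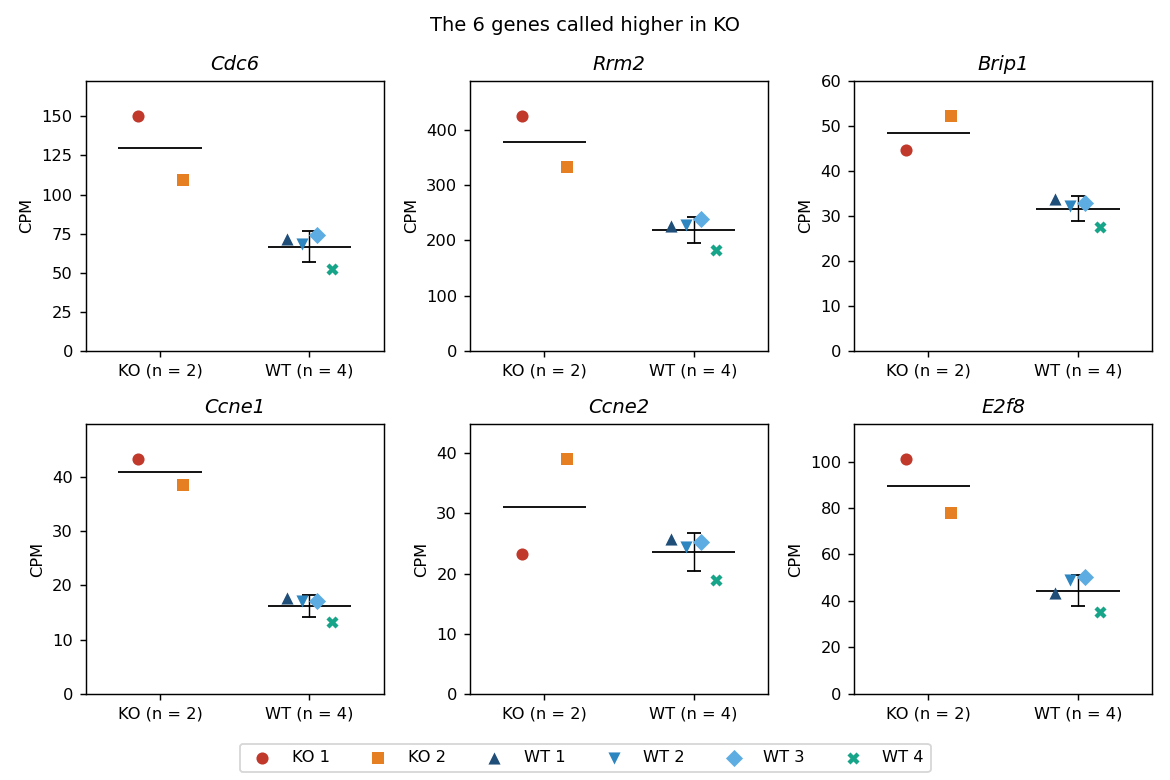
CPM of the 6 called genes in each library, 1 panel per gene, KO left of WT, with the group mean as a horizontal line and the SD of the 4 WT libraries as a bar. In Ccne2, KO 1 at 23.2 CPM lies among the WT libraries, and in the other 5 genes both KO libraries lie above all of WT.

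The calls depended on which libraries were kept. Without KO 1, 16 of the 34 genes were called higher (30.3% of all genes) and 6 lower (31.6%), and without KO 2, 32 were called higher (31.3%) and 1 lower (37.3%). In each of these fits the lone KO library is assumed to vary like WT. Without WT 1, 2 were called higher (6.67%) and 0 lower (5.94%), without WT 2, 2 higher (6.69%) and 0 lower (6.25%), and without WT 3, 3 higher (6.81%) and 0 lower (6.43%), with Brip1 and Ccne1 in each and E2f8 in the last. Without WT 4, 16 were called higher (29.3%) and 7 lower (33.6%), KO 2 then being set against WT females alone. With WT 4 and the sex term both left out, an alternative chosen after seeing the data, 5 were called higher (10.2% of all genes) and 0 lower (10.4%).

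Per kilobase of gene length, which allows levels to be compared between genes, the 4 genes with the highest means in both groups were Mcm6, Pcna, Mcm7 and Uhrf1. Mcm6 averaged 317 CPM per kb in KO and 309 in WT, Pcna 328 in KO and 228 in WT, Mcm7 258 in KO and 216 in WT, and Uhrf1 220.4 in KO and 242 in WT. By these means Pcna ranked first in KO and Mcm6 first in WT, but the KO libraries differed. In KO 1 Pcna stood at 409 CPM per kb and Mcm6 at 347, and in KO 2 Pcna at 247 and Mcm6 at 286. Uhrf1 stood at 146 CPM per kb in KO 2, below Mcm3 (173), Rrm2 (152) and Mcm5 (149). The lowest means in both groups were those of Brip1, at 6.99 CPM per kb in KO and 4.57 in WT, and Ccne2, at 9.67 in KO and 7.33 in WT. In KO 2 alone, Exo1 at 8.91 CPM per kb was below Ccne2 at 12.1. Ccne1, at 20.9 CPM per kb in KO and 8.31 in WT, ranked 29 of 34 in KO and 32 of 34 in WT.

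Other genes of the same machinery were read from a wider list of 57 genes, all tested, of which 5 were called higher (8.77%, against 14.1% of all genes) and 3 lower (5.26%, against 16.5%), with a median log2 fold change of 0.17. Higher in KO were Samhd1, which degrades deoxynucleotides (log2 7.54, adjusted p = 0.000514), Asf1b, a histone chaperone (log2 1.10, adjusted p = 0.0190), Dut, which removes dUTP (log2 0.94, adjusted p = 0.0178), Orc1 of the origin recognition complex (log2 0.60, adjusted p = 0.00753) and Rpa1 (log2 0.36, adjusted p = 0.0185). Samhd1 stood at 16.2 and 115 CPM in KO 1 and KO 2, against 0.410, 0.418, 0.422 and 0.316 CPM in WT 1 to 4. Lower were Orc2 (log2 -0.61, adjusted p = 0.0494) and Orc3 (log2 -0.47, adjusted p = 0.0108) of the same origin complex, and Ppat, the first enzyme of purine synthesis (log2 -0.33, adjusted p = 0.0410). All 3 lower calls were absent from voom, which called 5 higher and 0 lower, against 7.42% and 3.86% of all genes.

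Of 19 regulators around S-phase entry, 4 were called higher (21.1%, against 14.1% of all genes) and 2 lower (10.5%, against 16.5%), with a median log2 fold change of 0.14. E2f7, the close relative of E2f8, stood at 22.5 and 26.1 CPM in KO 1 and KO 2, against 4.81, 4.76, 5.64 and 2.99 CPM in WT 1 to 4 (log2 2.58, SE 0.185, adjusted p = 0.00087). Cdk2, the kinase that cyclin E activates, stood at 191 and 127 CPM in KO 1 and KO 2, against 72.8, 69.1, 74.9 and 67.3 CPM in WT 1 to 4 (log2 1.10, SE 0.163, adjusted p = 0.00804). Both KO libraries were above every WT library for each gene. E2f2 and the pocket protein gene Rbl1 were also called higher (log2 0.55 and 0.31), with KO 1 inside the WT range for both. E2f5, an E2F that works with pocket proteins in repression, and Atr, the replication stress kinase, were called lower (log2 -1.72 and -0.49). voom did not call E2f2, Rbl1, E2f5 or Atr (adjusted p = 0.0718, 0.273, 0.189 and 0.140). It called 3 of the 19 higher (E2f7, Cdk2 and the mitotic kinase gene Cdk1) and 0 lower, against 7.42% and 3.86% of all genes.

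Of the G1 regulators, 12 of 13 listed genes were tested, 4 were called higher (33.3%, against 14.1% of all genes) and 3 lower (25.0%, against 16.5%). The CDK inhibitor genes Cdkn2a, Cdkn2d and Cdkn2c were higher (log2 6.70, 1.47 and 1.05), as was Ccnd3, the cyclin D gene that DN3 cells need to expand (log2 0.94). Cdkn2a stood at 35.7 and 2.09 CPM in KO 1 and KO 2, against 0.0483, 0.0418, 0.115 and 0.0703 CPM in WT 1 to 4. The WT values rest on only 2, 1, 3 and 2 counts, so the size of this fold change is uncertain. The genes of the CDK inhibitor p21 (Cdkn1a), of Cdk6 and of cyclin D2 (Ccnd2) were lower (log2 -2.28, -2.26 and -2.06).

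In 26 genes of mitosis, 10 were called higher and 0 lower (38.5% higher, against 14.1% of all genes), with a median log2 fold change of 0.85, against 0.39 in the 34 replication genes. All WT libraries were below both KO libraries in 26 of the 26, against 17 of the 34 replication genes and 22.9% of all genes. Among the largest were Cenpa, the centromeric histone (log2 1.74), Cenpf (log2 1.55), the cyclin gene Ccnb2 (log2 1.49) and Cenpe (log2 1.42). voom called 18 of the 26 higher, against 7.42% of all genes. The difference between the lists was not tested, since their genes share the same 6 libraries.

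**Figure D4:**
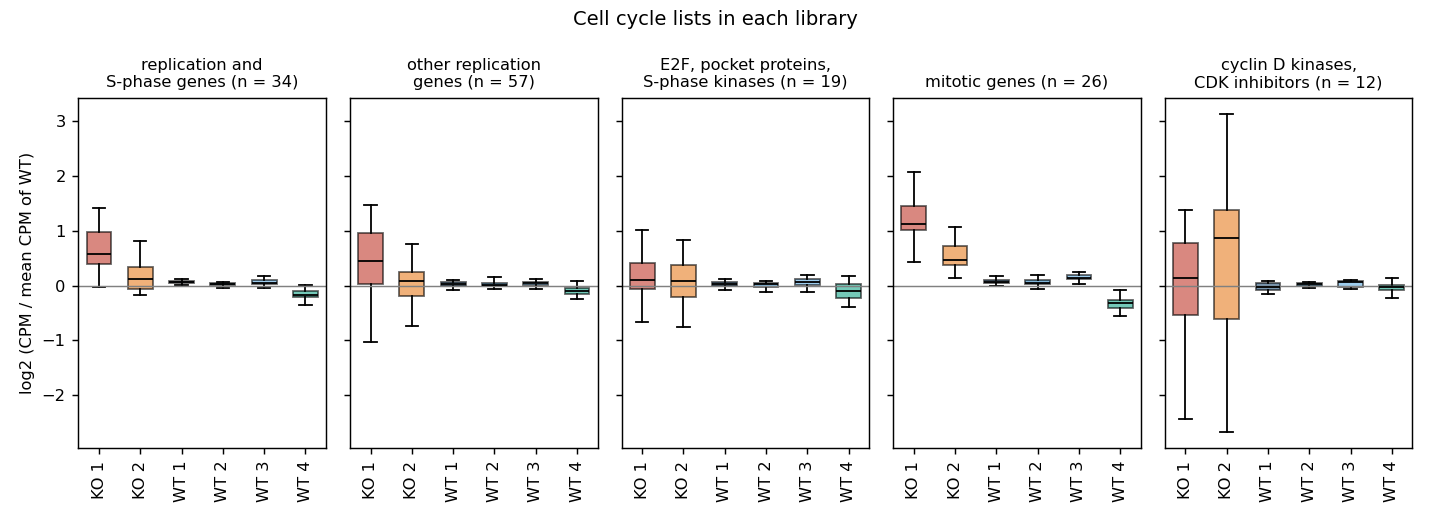
Log2 ratio of each gene to the WT mean, by library and gene list, as boxes with the median and quartiles and whiskers reaching at most 1.5 times the interquartile range, without points beyond them, KO left of WT. The replication genes have medians of 0.58 in KO 1 and 0.13 in KO 2, and the mitotic genes have medians of 1.12 in KO 1 and 0.47 in KO 2.

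Markers of other cell types were summed in each library. The 10 markers of cells past β-selection summed to 1260.1 and 3063 CPM in KO 1 and KO 2, against 627 to 661 CPM in WT, and 7 of the 10 were called higher. Cd8a, the gene of a surface marker whose cells the sort removed, reached 66.9 CPM in KO 1 and 858 in KO 2, against 0.703 to 3.72 CPM in WT, and Cd4 had 0 CPM in KO 1 and 12.8 in KO 2, against 0.738 to 2.61 CPM in WT. The 12 B-cell markers summed to 545 and 1116 CPM in KO 1 and KO 2, against 237 to 267 CPM in WT, of which Ighm gave 522 and 877 CPM in KO. Ms4a1 and Pax5, which define B cells, were at 36.0 and 7.54 CPM in KO 2 and at 0 in KO 1 and all WT libraries. The 8 markers of NK and innate lymphoid cells summed to 1384 and 1460 CPM in KO 1 and KO 2, against 258 to 302 CPM in WT, with 1333 and 1407 CPM of Gzma in KO. The myeloid list summed to 5.48 and 10.2 CPM in KO 1 and KO 2, against 17.5 to 19.9 CPM in WT, the erythroid list to 11.7 and 36.6 CPM, against 9.17 to 20.2 CPM, and the thymic epithelial list to 82.1 and 106 CPM, against 190.3 to 203 CPM, with Foxn1 and Krt5 at 0 in every library. Of the KO libraries, KO 1 had the lower sums of the β-selection and B-cell lists, but single markers did not all follow these sums. In KO 1 and KO 2, Trac stood at 69.5 and 394 CPM, Cd27 at 366 and 371, and Slc3a2 at 141 and 118. The DN3 marker Rag1 stood at 521 and 1953 CPM in KO 1 and KO 2, against 1476 to 1925 CPM in WT. Of the other DN3 markers, Rag2, Hes1, Bcl11b and Dntt were also lower in KO 1 than in KO 2. Il2ra, Ptcra, Notch1, Notch3, Cd3g, Cd3e and Lck were higher in KO 1 than in KO 2. The part of cells past β-selection or of other cell types in the replication gene levels was not tested.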

How the data were processed

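RNA of sorted DN3 thymocytes from 6 mice was amplified with the SMART-Seq v4 kit, which does not mark strand, and sequenced as paired ends, per the labels' protocols. The authors deposited raw read counts by Entrez gene, made with featureCounts on mm10, per the submitters' processing notes. No aligner, version or strand setting is given in the sources used here. The 6 single-library tables hold the same values as the table of the series. Of 26332 identifiers, 25275 matched the RefSeq table of GRCm38.p6, which gave symbols and coordinates.

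The test was that of edgeR 4.0.16 in R 4.3.3 over all genes kept by filterByExpr (count minimum 10), with TMM scaling, a robust quasi-likelihood F-test and sex as a covariate, leaving 3 residual degrees of freedom. The threshold for a call was a Benjamini-Hochberg adjusted p of 0.05. The standard error (SE) is the log2 fold change divided by the square root of F. The script was tested on simulated data. Alternatives were limma 3.58.1 (voom, weights per genotype), DESeq2 1.42.0, other scalings, no filter, no sex term, a replicate block, and leaving out each library. The 34 genes yielded between 376 and 38843 counts each per library. Counting error is thus small beside the spread between the KO mice where the KO libraries differ widely. This holds less for Ccne1 and Brip1, whose KO libraries were near each other. Beside the narrower WT spread it also holds less for the genes with the fewest counts. p-values rest on the spread between individual mice. In edgeR this spread is fitted in common to both genotypes, though it was larger between the KO libraries. The KO mice were 1 male and 1 female, so the sex term can take up part of their difference.

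The 34 genes and the other lists were chosen with earlier results of these data known. Values per library are given for called genes and for the 2 uncalled genes of each role with the highest mean CPM over the 6 libraries, not scaled for gene length. Cdt1, Clspn and the remaining genes given with single values, and Rpa1 and the marker genes, were named after their values were seen. Genes with annotated pseudogenes (Pcna, Tyms, Nasp) or overlapping protein-coding genes (Mcm7, Cdc45, Gins2, Fen1, Ung, Dtl, Ccne2) may share or lose reads, so their counts are less certain.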

Additional observations from a re-analysis of the deposited data

Results flagged for a closer look

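In 6 of the 34 genes WT 4 lay far below the other 3 WT libraries, with a gap to the nearest WT library that exceeded Dixon's critical value for 4 samples. The gap as a share of the WT range was 0.967 for Pola1, 0.930 for Pcna, 0.881 for Rpa2, 0.844 for Tyms, 0.879 for Exo1 and 0.862 for Ccne1. WT 4 was the only male WT mouse. Chance marks about 1 in 20 groups, and 7.86% of all genes tested were marked in the WT libraries.

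In 14 of the 34 genes KO 1 differed from the male WT 4 in one direction and KO 2 from each of the 3 female WT libraries in the other (29.2% of all genes tested). This difference was not tested, since each sex had 1 KO mouse. The log2 difference of KO 1 to WT 4 minus that of KO 2 to the WT females was 0.94 for Mcm2, 0.39 for Mcm6, 0.80 for Mcm7, 0.49 for Pola1, 0.38 for Rfc2, 0.80 for Rpa2 and 0.73 for Rrm1. It was 1.37 for Tyms, 0.49 for Chaf1b, 1.09 for Uhrf1, 0.65 for Tipin, 0.93 for Exo1 and 0.57 for Ung. In Usp1 it was -0.55, with KO 1 below WT 4 and KO 2 above the WT females.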

How the results depend on the processing

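Of the called genes, Ccne1 passed in 13 of 14 alternatives (highest adjusted p = 0.0599), Brip1 in 12 (0.319), E2f8 in 11 (0.0715), Cdc6 in 10 (0.0736), Rrm2 in 10 (0.0958) and Ccne2 in 7 (0.767). These alternatives do not weigh equally. They include the fits without KO 1, without KO 2 and without WT 4, in which the KO level rests on 1 KO library. The fits without KO 1 and without WT 4 both set KO 2 against the WT females, so this comparison is counted more than once. The alternatives also include fits that change only the scaling or the filter. Also among the 14 is the fit without WT 4 and the sex term, chosen after seeing the data. DESeq2 called 15 of the 34 genes, 15 higher, and 21 of the 57 other replication genes, 16 higher and 5 lower. limma-voom called 1500 genes in all (987 higher, 513 lower) and 5 other replication genes (0 lower). Without the sex term 11 of the 34 (11 higher) and 14 of the 57 (11 higher) were called, where 14.4% of all genes were called higher and 15.5% lower. The replicate numbers name individual mice and do not pair them, and only 2 are shared. With the replicate block in place of sex, 748 genes were called (413 higher, 335 lower). These held 0 of the 34 and 1 of the 57 (1 higher, 0 lower), and Pola1 turned to -0.015 in this fit. With total counts in place of TMM factors Mcm6 turned to -0.0028. Without WT 4 and the sex term, 1374 genes and 1 of the 57 were called lower, and Pola1 turned to -0.0087.

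Leaving out 1 library gave between 1665 and 9473 genes called (881 to 4321 higher, 784 to 5152 lower), 2 to 33 of the 34 (2 to 32 higher, 0 to 7 lower), and 2 to 47 of the 57 (2 to 38 higher, 0 to 17 lower). The median log2 fold change of the 34 lay between 0.080 and 0.78. Values that changed sign, each between its lowest and its highest, were those of Mcm2 (-0.076 to 0.85), Mcm6 (-0.14 to 0.25), Mcm7 (-0.14 to 0.64), Gins2 (-0.026 to 1.27), Pola1 (-0.12 to 0.36), Rfc2 (-0.068 to 0.29), Rpa2 (-0.084 to 0.70), Rrm1 (-0.083 to 0.63), Tyms (-0.20 to 1.16), Chaf1b (-0.17 to 0.31), Nasp (-0.020 to 0.79), Tipin (-0.10 to 0.53), Exo1 (-0.14 to 0.77), Usp1 (-0.52 to 0.057), Ung (-0.18 to 0.38) and Uhrf1 (-0.74 to 0.33). Except in Usp1, the low ends came without WT 4, where KO 1 is the only male and the sex term takes up its level. The high ends, again except in Usp1, came without KO 2, where KO 1 is set against WT 4 alone. With 2 KO mice of unlike levels, the fold changes of genes in which the KO libraries straddle WT are poorly fixed, and sequencing depth is not the limit.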
